A study of Mus musculus with 6 samples.

Results

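The genes described here are 9 interferon-induced genes of the mouse, measured in testis: the RNA sensor gene Ddx58, the transcription factor gene Irf7, the antiviral genes Isg15, Ifit1 and Ifit3, and the guanylate-binding protein genes Gbp2, Gbp3, Gbp6 and Gbp9. They were chosen by name, with values of the same genotype comparison already known, so their differences between genotypes are given below as descriptions without a test. The array carries 13 of its 41174 probes for them, under 9 of its 27376 gene names. Total RNA of whole testis came from 6 male mice on a mixed 129Sv and C57BL/6 background, aged 6 to 8 weeks. The 3 animals of one group were wild type (WT), and the 3 of the other were knockouts for Prss54 (Prss54KO), a serine protease family gene. Each testis was hybridised to its own 1-colour Agilent array with Cy3-labelled RNA, from 0.5 ug per sample. The labels name no further treatment, no litter and no details of the deletion, so spread between animals here includes whatever differed between litters.

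Interferons are secreted proteins that bind receptors on the cell surface. The receptors activate Janus kinases, which phosphorylate transcription factors that enter the nucleus and switch on many genes through short promoter elements. Type I interferons act mainly through the interferon-stimulated response element, bound by a complex that includes Stat2 and Irf9, and interferon gamma acts through the gamma-activated site. In the testis, macrophages, Leydig cells and Sertoli cells are known to mount this response, while developing germ cells lie behind the barrier that Sertoli cells form.

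The arrays correlated with each other at r of 0.9944 to 0.9969 over genes, but differed in detection. The scanner software marked 66.2% (Prss54KO replicate 1) to 74.8% (Prss54KO replicate 3) of gene spots as well above background, and 0 as saturated. The lowest log2 level (defined below) so marked was highest on Prss54KO replicate 1, at -5.18, and lowest on Prss54KO replicate 3, at -6.12. Dim genes are read with that limit. All 12 germ cell markers of the list were measured above background, among them Ddx4, at 29827 to 34012 units, and Dazl. The Prss54 probe read 22677, 24153 and 26120 units in WT and 7381, 9466 and 8416 units in Prss54KO. Its log2 difference was -1.56 (SE 0.10, limma adjusted p = 0.0764, n = 3 per genotype), so the groups were apart at this probe, and the sources used here do not say whether the probe lies inside the deleted part. The arrays lay on 3 slides, each scanned once. Slide 2 held 1 WT array (replicate 3) and 2 knockout arrays (replicates 1 and 2), while slide 3 held the other WT arrays and slide 1 the last knockout array. Because slide 2 alone mixed the genotypes, its value is given beside the members' differences. In whole tissue, fewer cells of a type and less RNA per cell cannot be told apart.

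Among the members, Gbp2, Gbp3 and the antiviral gene Ifit3 varied with the individual mouse. Their highest log2 level was in Prss54KO replicate 1 and their lowest in Prss54KO replicate 2. For Gbp2 that low end was shared, at -2.730 there, -2.726 in WT replicate 1 and -2.711 in Prss54KO replicate 3. Gbp6 was also highest in Prss54KO replicate 1 and lowest in Prss54KO replicate 2. It was not well above background in either of these knockouts, so its order is not read. Gbp9 was level within the knockouts, with signals of 95.4 to 99.5 units there against 64.6 to 80.2 units in WT. Isg15 and Ddx58 varied little between most testes, and Irf7 was high in WT replicate 1 alone. Ifit1 was not well above background in any testis. Signals are the scanner software's processed brightness of a spot, in arbitrary units that hold for 1 probe only. Log2 levels are these signals scaled to the 75th percentile of the array.

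Of the 13 probes, 8 were well above background on all 6 arrays, 1 on 4 arrays and 4 on none. The 9 measured probes stand for 8 of the 9 genes, and Ifit1 is the gene that falls out. Of these 8 genes, 3 had a mean log2 level above that of WT (Gbp9, Gbp2 and Ifit3, of which Ifit3 turned to -0.00 with median or quantile scaling) and 5 below it (Gbp3, Gbp6, Irf7, Isg15 and Ddx58, of which Gbp3 turned to 0.01 with another background correction). Across all 19389 genes tested, 53.2% were above 0. The count of 3 became 1 without Prss54KO replicate 1, 6 without Prss54KO replicate 2 and 5 without WT replicate 1. The median difference of the 8 genes was -0.05 on the log2 scale, beside 0.01 for all genes tested. With limma and Benjamini-Hochberg adjustment, 0 of 19389 genes and 0 of 28913 probes passed an adjusted p of 0.05 (0.0% each), and 642 genes (3.31%) had an unadjusted p under 0.05. The genotypes did not overlap in 1 of the 8 members, Gbp9, beside 7.79% of all genes tested, and nothing is read from that count because the members were chosen on this comparison.

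**Figure D1:**
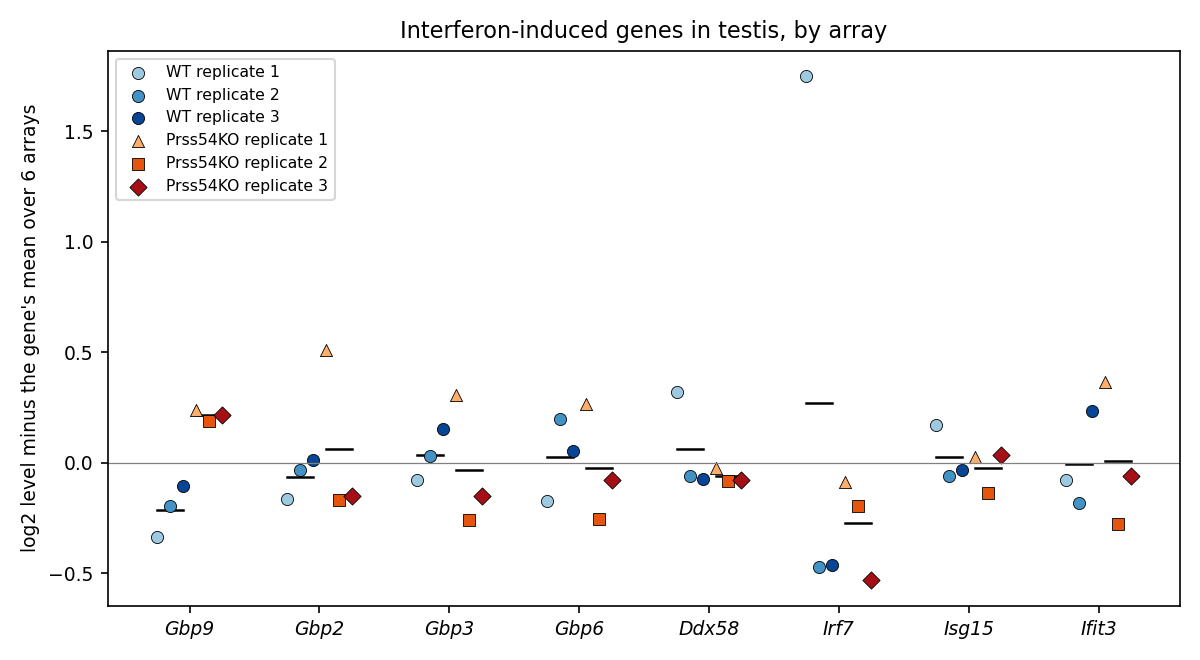
Log2 level of each measured member on each of the 6 arrays, minus the gene's mean over the arrays; circles are WT, other symbols are Prss54KO, and black lines are the mean of each genotype (n = 3). The Prss54KO symbols of Gbp9 sit together above its WT circles, Prss54KO replicate 1 is the highest symbol for Gbp2, Gbp3, Gbp6 and Ifit3, and WT replicate 1 stands 1.75 above the mean for Irf7. Gbp6 was not well above background in Prss54KO replicates 1 and 2.

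Ddx58 encodes RIG-I, a helicase in the cytoplasm that recognises viral RNA ends and signals to Mavs. Its brightest probe lies on chromosome 4 of the mm9 build (chr4:40156918-40156977, minus strand) and is shown, with that of Irf7, because WT replicate 1 was the highest array for both genes. The letters are those of the probes, 5′ to 3′, as deposited.
Ddx58: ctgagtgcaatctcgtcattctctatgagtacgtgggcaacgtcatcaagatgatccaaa
Irf7: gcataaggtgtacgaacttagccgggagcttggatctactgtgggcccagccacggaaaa

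The Ddx58 probe read 437, 330 and 352 units in WT replicates 1 to 3 and 356, 339 and 346 units in Prss54KO replicates 1 to 3. WT replicate 1 was the high array, and the other 5 lay between 330 and 356 units. The log2 difference, Prss54KO minus WT, was -0.12 (SE 0.11), it was 0.00 without WT replicate 1, and it was 0.02 within slide 2. The within-genotype SD of Ddx58 was 0.16 on the log2 scale, beside a median of 0.11 for genes of like signal. A second Ddx58 probe read 66.5, 54.1 and 69.3 units in WT and 58.0, 68.0 and 61.2 units in Prss54KO, with a difference of -0.04 (SE 0.10), and on it WT replicate 1 did not stand out. The other 2 Ddx58 probes were not well above background on any array, so no difference is drawn from them. The related sensor gene Ifih1, which encodes MDA5, had a difference of 0.06 (SE 0.16), Dhx58, another helicase gene of the family, one of 0.05 (SE 0.07), and the adaptor gene Mavs one of 0.00 (SE 0.06).

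Irf7 encodes the transcription factor that amplifies type I interferon production once it is phosphorylated. Its probe maps to chr7:148450664-148451014 (mm9, minus strand), a span of 351 bases for a 60-base probe. Its signals were 238, 50.1 and 54.3 units in WT and 68.9, 63.4 and 51.0 units in Prss54KO. A single array, WT replicate 1, was 4.63 times the median of the other 5, and those 5 lay between 50.1 and 68.9 units. The log2 difference was -0.54 (SE 0.61) with all arrays, turned to 0.20 without WT replicate 1, and was 0.32 within slide 2, so the sign of the Irf7 difference was set by that array.

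The Irf7 spot on WT replicate 1 was also uneven. The SD of its pixels was 30.7% of their mean, against 13.8% to 17.7% for the same probe on the other 5 arrays, and it exceeded that of 99.97% of the 3144 gene spots of like brightness on that array (median 11.8%). The scanner software did not mark the spot as an outlier. Irf7 was 1 of 15 genes that lay more than 1 log2 unit above every other array on WT replicate 1, and the other arrays had 5 to 28 such genes. Of the 14 others on WT replicate 1, 4 (Olfr868, Fcna, C87499 and AK089846) had their spot within 8 rows of Irf7 on an array of 532 rows, a strip that holds 3.20% of the gene spots. These spot features were looked at after the Irf7 value had been seen, and their part in the high reading was not tested.

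Isg15 encodes a ubiquitin-like protein that is attached to other proteins after interferon exposure. At chr4:155573922-155573981 (mm9, minus strand), its probe read 91.5, 76.7 and 83.8 units in WT and 85.5, 75.8 and 86.8 units in Prss54KO. All 6 testes therefore lay within 75.8 to 91.5 units, and the genotypes overlapped. The log2 difference was -0.05 (SE 0.09), and -0.02 within slide 2. Its within-genotype SD of 0.11 was below the median of 0.20 for genes of like signal. WT replicate 1 was the highest array for Isg15 as for Ddx58 and Irf7, by 0.17 above the gene's mean.

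Ifit1 and Ifit3 encode tetratricopeptide-repeat proteins, of which Ifit1 binds foreign RNA ends and Ifit3 partners it. Their probes lie 60.6 kb apart on chromosome 19 (mm9, plus strand), Ifit3 at 34663105 to 34663164 and Ifit1 at 34723796 to 34723855. Ifit1 was not well above background on any array, at 7.15 to 21.2 units in WT and 12.1 to 19.6 units in Prss54KO, so these values are upper bounds on its level and no difference is given. Ifit3 read 142, 130 and 186 units in WT and 199, 126 and 150 units in Prss54KO. Its highest and its lowest array were both knockouts. The Ifit3 difference was 0.02 (SE 0.19), turned to -0.00 under median or quantile scaling, and was -0.19 within slide 2. Its within-genotype SD of 0.28 was above the median of 0.15 for genes of like signal and larger than in 86.1% of them.

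The 4 guanylate-binding protein genes encode large GTPases that assemble on the vacuoles and membranes of intracellular microbes. In the mouse they lie in clusters: the Gbp2 and Gbp3 probes are 64.6 kb apart on chromosome 3, and the Gbp6 and Gbp9 probes 191 kb apart on chromosome 5 (mm9). Gbp2 (chr3:142300719-142300778, plus strand) read 244, 263 and 291 units in WT and 404, 249 and 257 units in Prss54KO. Prss54KO replicate 1 stood above the other 5 testes, which lay between 244 and 291 units. The difference between genotypes was 0.13 (SE 0.19), 0.16 within slide 2 and -0.10 without Prss54KO replicate 1. The within-genotype SD of Gbp2, 0.28, was larger than in 93.5% of the 2033 genes of like signal, whose median was 0.12.

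Gbp3 (chr3:142236072-142236131, plus strand) read 194, 205 and 240 units in WT and 262, 175 and 192 units in Prss54KO. Again Prss54KO replicate 1 was highest and Prss54KO replicate 2 lowest. The Gbp3 difference was -0.07 (SE 0.16), -0.13 within slide 2, -0.24 without Prss54KO replicate 1 and 0.04 without Prss54KO replicate 2. Gbp6 (chr5:105700081-105700140, minus strand) read 39.3, 49.9 and 48.6 units in WT and 55.1, 38.1 and 43.7 units in Prss54KO, with the same highest and lowest animal. It was near the detection limit, being well above background in all 3 WT testes and only in replicate 3 of the knockouts. The scanner software's error reached 26.5% of the signal, so the order of the Gbp6 arrays is not read. The difference of Gbp6 was -0.05 (SE 0.16), and -0.05 within slide 2.

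Gbp9 had 2 probes on chromosome 5 (mm9, minus strand), 14.2 kb apart, which gave different pictures. They are shown because they decide what can be said of Gbp9: the measured probe (chr5:105508946-105509005) by its first 30 bases, and the other (chr5:105523238-105523479, a span of 242 bases) whole.
Gbp9, measured probe: aatataaaagtgctgatttgagggtggctg
Gbp9, other probe: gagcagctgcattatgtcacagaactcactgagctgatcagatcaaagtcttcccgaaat

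The file annotates the measured probe with 1 RefSeq transcript, that of Gbp9. It annotates the other probe with 4, which the RefSeq table names Gbp4, Gbp6, Gbp9 and Gbp10, so that probe would not separate these relatives. The measured probe read 64.6, 70.0 and 80.2 units in WT and 99.5, 95.4 and 98.9 units in Prss54KO. All 3 knockouts lay above all 3 WT animals, with a gap from 80.2 to 95.4 units. The mean was 71.6 ± 7.91 units in WT and 98.0 ± 2.21 units in Prss54KO (SD, n = 3 each), a log2 difference of 0.43 (SE 0.07) or 1.35-fold.

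Within slide 2 the Gbp9 difference was 0.32, and with the normexp background correction, which adds an offset of 50 units, it was 0.22. Over the 13 alternatives that did not leave out single animals it ranged from 0.22 to 0.46, and over the 6 fits without 1 animal from 0.37 to 0.48. The scanner software's own error for a Gbp9 spot was 11.5% to 16.3% of the signal. The within-genotype SD of 0.08 was smaller than in all but 6.37% of the 1899 genes of like signal. The other Gbp9 probe was not well above background on any array, at 6.57 to 7.13 units in WT and at most 9.99 units in Prss54KO, so it gives no second reading of the difference.

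**Figure D2:**
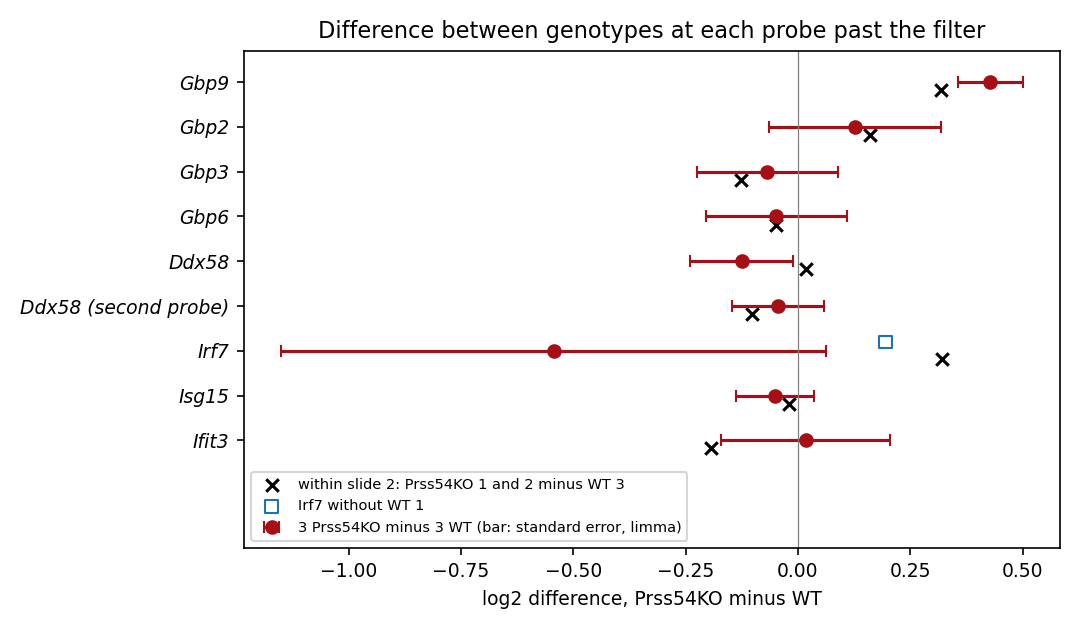
Log2 difference between genotypes for the 9 measured probes, with limma's standard error as the bar (n = 3 per genotype); crosses give the value within slide 2 and the open square gives Irf7 without WT replicate 1. Gbp9 lies at 0.43 and its cross at 0.32, the bars of the other genes but Ddx58 reach 0, Ifit3 turned to -0.00 with median or quantile scaling, and Irf7 moves from -0.54 to 0.20.

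Set side by side, the members did not all follow the same course across the animals. Prss54KO replicate 1 was the highest array for 5 of the 8 measured members, where 18.0% of all genes tested were highest. Prss54KO replicate 2 was the lowest for 6 of the 8, where 16.1% of all genes were lowest. Both counts include Gbp6, which was not well above background in either of these animals. Some of these ranks rest on narrow margins in log2 level. Prss54KO replicate 2 and the next lowest array lay at -2.730 and -2.726 for Gbp2, and at -2.289 and -2.282 for Ddx58. For Gbp9 the knockouts lay at -4.069, -4.116 and -4.088. The median deviation from the gene's mean over the 8 members was 0.25 in Prss54KO replicate 1 and -0.18 in Prss54KO replicate 2, and between -0.08 and -0.01 in the other 4 testes. Gbp9 was the only one of the 4 guanylate-binding members in which Prss54KO replicate 2 lay above every WT animal.

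Prss54KO replicate 1 was also high in the other interferon-inducible GTPases, a list of relatives of the members that includes the immunity-related GTPases, which clear vacuoles that hold parasites or bacteria. Irgc1 and Irgq were put in that list by family name, and their induction by interferon is not shown here. Of the list's 14 genes on the array 12 were measured. Prss54KO replicate 1 was highest in 9 of the 12, Irgc1 and Irgq included, with a median deviation of 0.31. The low end was shared between a knockout and a WT animal: Prss54KO replicate 2 was lowest in 6 genes, with a median of -0.24, and WT replicate 1 in 5, with a median of -0.23. Iigp1 read 179, 248 and 222 units in WT and 508, 182 and 207 units in Prss54KO, which put Prss54KO replicate 1 at 1.07 above the mean on the log2 scale. Igtp read 391, 417 and 468 units in WT and 652, 371 and 394 units in Prss54KO. Irgm1, a regulator of the family, deviated by 0.22 in Prss54KO replicate 1 and by -0.31 in Prss54KO replicate 2, and Igtp by 0.55 and -0.25.

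The guanylate-binding genes outside the members did not all share that course. Gbp7, on chromosome 3 like Gbp2 and Gbp3, had its highest array in WT replicate 3 at 85.2 units and its lowest in WT replicate 1 at 50.2 units. Gbp5 was highest in Prss54KO replicate 2 at 395 units. Gbp8, near the detection limit, read 28.0 to 41.2 units in WT and 35.7 to 40.4 units in Prss54KO, and Gbp1 and Gbp4 were not well above background on any array. Differences between genotypes were 0.09 (SE 0.19) for Gbp7, 0.04 (SE 0.17) for Gbp5 and 0.10 (SE 0.15) for Gbp8. Iigp1 had a difference of 0.29 (SE 0.40), Igtp 0.08 (SE 0.22) and Irgm1 -0.07 (SE 0.13). Of the 12 measured GTPases 10 were above 0, Irgc1 and Irgq among them, and 2 below. Without Prss54KO replicate 1 only 3 were above 0 (Gbp5, Gbp8 and Irgq), and without WT replicate 1 only 5 were. In the fit of all 6 arrays none passed limma's threshold or had an unadjusted p under 0.05, and the genotypes overlapped in each of them.

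**Figure D3:**
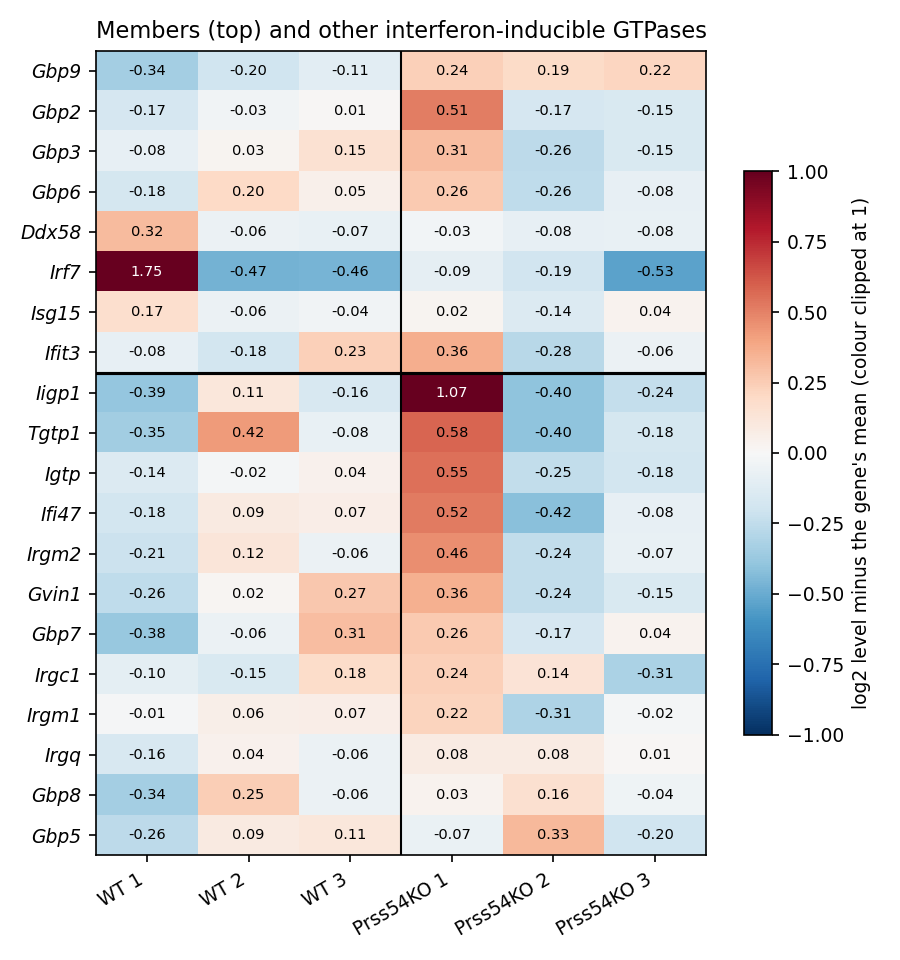
Log2 level minus the gene's mean over 6 arrays for the 8 measured members (top block) and the 12 measured genes listed as other interferon-inducible GTPases (bottom block), 1 column per mouse. Irgc1 and Irgq are in the bottom block by family name. The column of Prss54KO replicate 1 is positive down most of both blocks, up to 1.07 for Iigp1, and the columns of Prss54KO replicate 2 and WT replicate 1 are mostly negative in the bottom block, while the Gbp9 row is positive in all 3 knockouts.

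Upstream in the pathway, 0 of the ligand, receptor and signalling genes passed limma's threshold or had an unadjusted p under 0.05. Ifnb1 and Ifng, which encode interferon beta and interferon gamma, were not well above background on any array. The array carries 13 ligand genes, of which 7 were measured, all but 1 of them interferon alpha genes, a family of near-identical copies whose probes may not separate them. Of the 7 measured, 6 were above 0 and 1 below, with a median of 0.13 beside 0.01 for all genes tested. The genotypes did not overlap in 1 of them, Ifna9, with a difference of 0.12 (SE 0.05). Of all genes tested, 4.18% were higher in Prss54KO without overlap. The receptor genes showed differences of -0.11 (SE 0.08) for Ifnar1, 0.00 (SE 0.09) for Ifnar2, -0.01 (SE 0.06) for Ifngr1 and -0.18 (SE 0.15) for Ifngr2. These 4 genes encode the chains of the type I and the interferon gamma receptor. With Ifnlr1 and Il10rb, 3 of the 6 receptor genes were above 0 and 3 below, and 1 was above 0 without WT replicate 1 or WT replicate 3.

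The kinase genes Jak1 and Tyk2 had differences of 0.02 (SE 0.07) and -0.06 (SE 0.05). Stat2 and Irf9, partners in the complex that binds the interferon-stimulated response element, stood at -0.05 (SE 0.05) and -0.05 (SE 0.06). The feedback inhibitor genes Usp18 and Socs1 stood at 0.07 (SE 0.14) and -0.15 (SE 0.07). Of the 11 signalling and feedback genes 3 were above 0 and 8 below, with a median of -0.03, and 5 were above 0 without Prss54KO replicate 3. Among the interferon regulatory factors, Irf1 had a difference of 0.02 (SE 0.09) and Irf3 one of -0.02 (SE 0.05). Irf8, a factor of macrophages and dendritic cells, was singled out after its values were seen. It read 1358, 1359 and 1674 units in WT and 1349, 719.9 and 1004 units in Prss54KO, so that its scaled levels did not overlap. Irf8 lies on chromosome 8, as the knocked-out Prss54 does, and the part of that position in its values was not tested. The Irf8 difference was -0.58 (SE 0.22). Its lowest animal, Prss54KO replicate 2, was also the lowest for 6 of the members. These include the dim Gbp6, and Gbp2 and Ddx58 by narrow margins.

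Antiviral effector genes made up the longest list, with 36 on the array and 29 measured; 11 were above 0 and 18 below, with a median of -0.03. The count above 0 ran from 8 to 16 when 1 animal was left out. Ifit2, a neighbour of the Ifit members, and Rsad2, which encodes viperin, were not well above background on any array. Mx1, which encodes a dynamin-like antiviral protein, was so on 1 array. Oas1a, an oligoadenylate synthetase gene, read 24.9 to 37.8 units in WT and 54.9, 20.8 and 36.9 units in Prss54KO, and was well above background on only 3 of the 6 arrays, so the order of its arrays is not read. The differences of Bst2, which encodes tetherin, Isg20, an exonuclease gene, and Eif2ak2, which encodes the kinase PKR, were 0.01 (SE 0.06), 0.05 (SE 0.11) and -0.10 (SE 0.13). The chemokine gene Cxcl9 had a difference of -0.16 (SE 0.24), and Cxcl10 was not well above background on any array.

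Over all 8 pathway lists, 86 of 106 genes were measured, and 0 rose and 0 fell by limma's threshold. Of the 86, 1 gene, Irf8, had an unadjusted p under 0.05 by limma, beside 3.31% of all genes tested. In these lists 42 genes were above 0 and 44 below, with a median of -0.01 beside 0.01 for all genes tested. The genotypes did not overlap in 1 gene that was higher in Prss54KO and 3 that were lower, beside 4.18% and 3.61% of all genes.

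Markers of other cells moved with some of the same animals. Of 16 macrophage markers 15 were measured, and Itgam was not well above background. Between genotypes 1 of the 15 was above 0 and 14 were below, with a median of -0.07, but 11 were above 0 without Prss54KO replicate 2. Prss54KO replicate 2 was lowest in 10 of the 15, with a median deviation of -0.35, and Prss54KO replicate 1 was highest in 5, with a median of 0.14. The summed signal of the 14 measured markers other than Aif1 was 20215 to 27239 units in WT and 28514, 19376 and 24098 units in Prss54KO replicates 1 to 3. Of this, Lyz2 alone supplied 9935 to 14580 units in WT and 15876, 9753 and 12156 units in these knockouts. With Aif1, which supplied most of the sum, it was 123840 to 160101 units in WT and 132364 to 151262 units in Prss54KO. Units of different probes are not on 1 scale, so these sums mostly follow the brightest probes. The first markers of that list, Emr1 and Csf1r, had deviations of 0.04 and -0.28 in Prss54KO replicate 2. Most members and most macrophage markers were thus lowest in the same knockout, Gbp2 and Ddx58 by narrow margins and Gbp6 near the detection limit. The part of macrophages in the members' values was not tested.

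Of the fibroblast markers 0 of 6 were above 0 between genotypes and 6 below, with a median of -0.54. In 3 the knockouts lay below WT without overlap, beside 3.61% of all genes tested. By limma 2 had an unadjusted p under 0.05, beside 3.31% of all genes tested, and 0 passed the threshold. Without Prss54KO replicate 2 the median was -0.29, with 5 below 0. They were lowest in Prss54KO replicate 2, with a median deviation of -0.76. Their summed signal was 33872 units there, against 45351 to 62774 units in WT and 46265 and 49808 units in the other knockouts. That sum mostly follows its brightest probes, those of Dcn and Col1a2. Col1a1 and Col1a2, the first genes of the list, deviated by -1.01 and -0.62 in Prss54KO replicate 2. In Prss54KO replicate 1 the fibroblast median was -0.08, and the part of cell types in the GTPase values of that animal was not tested. Lymphocyte markers, 10 of 12 measured with Cd3d and Cd3e first, had median deviations of 0.09 in Prss54KO replicate 1 and 0.04 in Prss54KO replicate 2. Medians for these 2 animals were -0.06 and -0.08 for Leydig cell markers (led by Cyp17a1 and Cyp11a1), 0.02 and -0.08 for endothelial markers (led by Cdh5 and Tek), and -0.03 and 0.02 for Sertoli cell markers (led by Sox9 and Amh). Germ cell markers had -0.02 and 0.03, and the 3 measured of 6 epididymis markers (Lcn9, Adam28 and Defb41) 0.10 and 0.05. Only 2 of 8 neutrophil markers, S100a9 and Mpo, were measured.

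**Figure D4:**
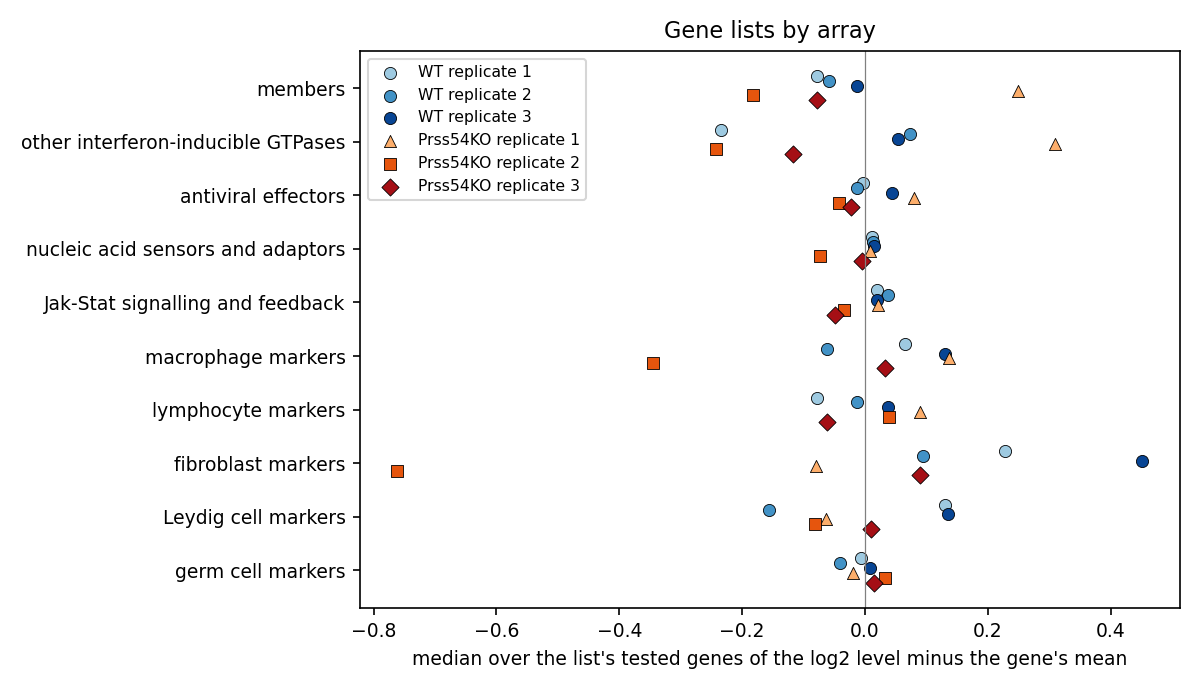
Median over the measured genes of a list of the log2 level minus the gene's mean over 6 arrays, 1 symbol per mouse. Prss54KO replicate 1 is the rightmost symbol for the members (0.25) and the other GTPases (0.31), Prss54KO replicate 2 is the leftmost for the members (-0.18), the macrophage markers (-0.35) and the fibroblast markers (-0.76), and the germ cell markers lie close to 0 in all animals.

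Genes with a pattern most like that of the members were ranked by Pearson r over the 6 arrays among 18077 genes above background on all arrays, as a description. Most alike to Gbp9 were Msi1, which encodes an RNA-binding protein, at r of 0.994, Adat3 at 0.993, the cytokine gene Il1b at 0.987, Cmc2 at 0.985 and Acin1 at 0.983. Their own differences between genotypes were 0.12, 0.13, 0.33, 0.08 and 0.10, each smaller than the 0.43 of Gbp9. For the mean of the members the closest were Pik3r6, Hadh, Kcnmb4, Acox3 and Polr2c, with r of 0.988 to 0.995 and differences of -0.01 to -0.00. With 6 arrays, 182 genes reached an r of 0.9 with Gbp9 and 153 with the members' mean, whose values on WT replicate 1 and Prss54KO replicate 1 were 0.18 and 0.20 above its own mean, the first of these including the Irf7 reading.

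The promoters of the members were described by short sequence motifs. The members were chosen as interferon-induced genes, so matches to the interferon-stimulated response element follow largely from that choice. Their counts are given as a description. RefSeq promoter windows of the GRCm38.p6 build, 250 bases before to 50 after the start site, were at hand for 7 of the 9 members. They were searched on both strands for the core of the interferon-stimulated response element, taken as GAAA, any 2 bases and GAAA again, and for TTCNNNGAA, the gamma-activated site. Matches of 1 motif were allowed to overlap. The first was found in 6 of the 7 members, beside 3.44% of all 32851 windows and 3.99% of genes, and Irf7 was the member without it. The second was found in 0 of the 7, beside 8.3% of windows. The stretches around the matches upstream of the start site are shown because they place the element in 5 members, with the matches in capitals on the gene's strand.
Gbp2, chr3:142620584-142620633, plus strand: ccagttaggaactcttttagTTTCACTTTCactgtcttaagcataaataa
Gbp3, chr3:142559979-142560034, plus strand: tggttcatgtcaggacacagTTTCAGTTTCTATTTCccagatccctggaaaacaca
Isg15, chr4:156200855-156200916, minus strand: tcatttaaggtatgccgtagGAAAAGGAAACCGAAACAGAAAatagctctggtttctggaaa
Ifit1, chr19:34640765-34640833, plus strand: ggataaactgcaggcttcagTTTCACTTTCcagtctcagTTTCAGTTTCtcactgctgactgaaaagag
Ifit3, chr19:34583353-34583436, plus strand: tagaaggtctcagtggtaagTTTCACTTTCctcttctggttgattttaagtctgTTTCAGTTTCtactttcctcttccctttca

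Isg15 had 3 overlapping matches on its own strand, from 78 to 57 bases before the start site. Gbp3 had 2 overlapping matches, from 45 to 30 bases before the start, and Gbp2 had 1, from 59 to 50 bases before it, both read on the opposite strand. The Ifit genes had 2 separate matches each, and those of Ifit3 lay farther out, at 156 to 147 and 122 to 113 bases before the start. In Ddx58 the match lay just after the start site, at 2 to 11 bases. The members with upstream matches include Gbp2, Gbp3 and Ifit3, which were highest in Prss54KO replicate 1, as well as Isg15, which was 0.02 from its mean in that animal, and Ifit1, which was not measured above background. A match in these letters is a description of the sequence and no measure of binding.

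**Figure D5:**
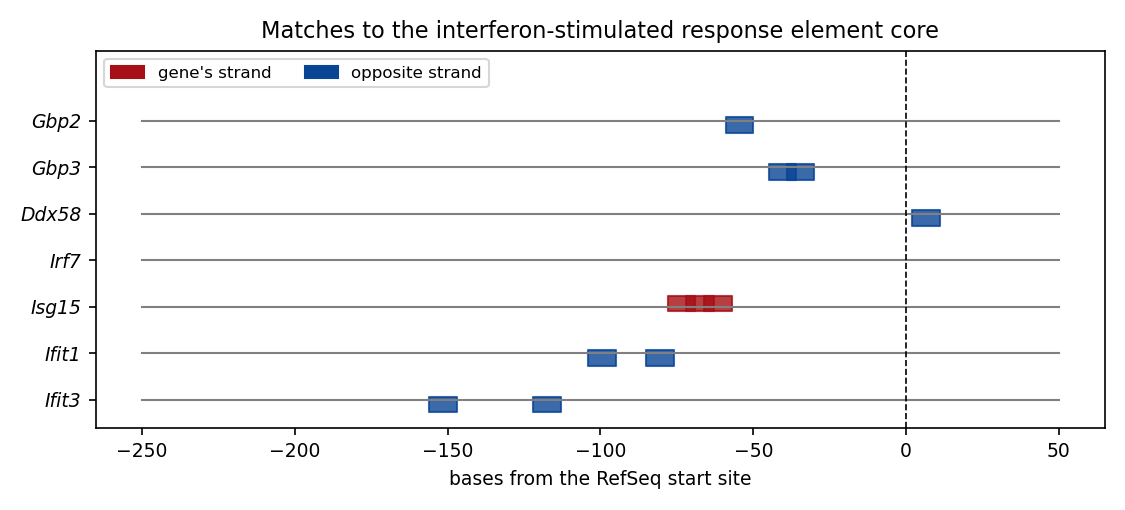
Position of each match to the core of the interferon-stimulated response element in the RefSeq promoter window of 7 members, in bases from the start site (dashed line); red bars are on the gene's strand and blue bars on the opposite strand, and Gbp3 is drawn for the window that holds matches. Matches lie between 156 bases before and 11 bases after the start, and Irf7 has none.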

How the data were processed

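Spot intensity was read from the deposited scanner files, in linear units. Per the file headers, Agilent Feature Extraction made them (10.7.3.1, or 10.7 per the submitters' processing notes), with background, saturation and outlier marks and mm9 probe positions. The processed signal is background-treated by that software. The deposited series table holds log2 values whose columns share their quantiles. It served as an alternative, and the sources used here do not name its software.

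Outlier-marked spots were left out and spots of a probe averaged. The level was the log2 processed signal after subtraction of the 75th percentile of its array. A probe was kept where at least 3 of 6 arrays showed it well above background, with the brightest probe per gene name. Genotypes were compared with limma 3.58.1 (R 4.3.3, lmFit and eBayes, two-sided, Benjamini-Hochberg over all genes, threshold 0.05) over all 6 arrays, after the script was tested on simulated data. The p-values of limma set the genotype difference against the moderated spread between arrays of a genotype. That spread holds differences between animals, slides and single arrays. SE is limma's moderated standard error. Genes of like signal are those within 0.5 log2 units in mean level. The number of arrays limits the precision.

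The members and gene lists were chosen with earlier results of these data known. Genes are named by a rule: every member, pathway genes by role, any list gene past the threshold, the first 2 measured markers of a cell type, and the 5 genes most alike Gbp9 or the members' mean. Gbp10, in the rule, had no probe matched by name. A gene of the rule and a probe sequence are not reported here. Genes beyond the rule (Irf8, the genes beside the Irf7 spot, Defb41, Itgam, Aif1, Trim30a) were named after their values were seen. Alternatives were other scaling, background correction, filters, probe rule, input table, slide and replicate blocks, array weights, variance models and leaving out each animal. RefSeq sequences (GRCm38.p6) served for promoters only. Gbp6 and Gbp9 promoters, member proteins and a genome were not used here.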

Additional observations from a re-analysis of the deposited data

How the results depend on the processing

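Fits that scaled the arrays, corrected the background, filtered, blocked or weighted otherwise, took the deposited table, or left out 1 animal were compared with the reported one. The reported fit called 0 genes. The count became 1 with normexp background correction (Prss54), 1 with slide as a fixed block (Klf1), 2 with trended and robust variance (Prss54 and Cngb1) and 2 with probes above background on all 6 arrays (the same genes by name), and it was 0 in the other fits, each fit without 1 animal included. No member and no pathway gene was called in any of them. The number of members above WT, 3 of 8, ran from 1 to 6 over the fits without 1 animal. Of the members, Gbp9 alone kept its sign in all 19 fits. Because its genotypes did not overlap, leaving out an animal, array weights, a replicate block or slide 2 alone could not have turned its sign. Slide as a fixed block gave the same 0.32 as slide 2 alone. The fits that changed only the filter, the probe rule or the variance model kept the reported 0.43. Gbp9 was also chosen with this comparison known, so nothing further is read from its sign. The labels do not say whether same-numbered animals were paired. Deviations of same-numbered animals correlated at -0.0373, 0.024 and -0.1638. Those of differently numbered animals correlated at -0.1782 to 0.1764, so these values cannot decide it. With a replicate block limma called 0 genes, with 780 instead of 642 at an unadjusted p under 0.05. Signals near background limit Gbp6, Ifit1 and the second Gbp9 probe. Of the slides, 1 held both genotypes, so slide and genotype are only partly separable. Counts of genes above 0 in the single lists without 1 animal were added after the data had been seen.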

Other observations

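Among the antiviral effector genes, Trim30a, which encodes a tripartite-motif protein induced by interferon, showed the course of Gbp2 at a larger scale. It read 113, 99.9 and 108 units in WT and 231, 95.5 and 93.9 units in Prss54KO, so Prss54KO replicate 1 stood 0.97 above the mean on the log2 scale and the other 5 testes lay between 93.9 and 113 units. Its difference between genotypes was 0.23 (SE 0.35, n = 3 per genotype). In Prss54KO replicate 1, Irf1 deviated by 0.20, Ifih1 by 0.37 and Isg15 by 0.02. The genes high in that animal were therefore a part of the interferon-induced set measured here, and they were picked out after their values had been seen.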
